A study of Homo sapiens with 12 samples.

Results

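The 37 genes described here build ribosomes or supply the building blocks for growth, and all are known as targets of the MYC family of transcription factors. They were chosen by name for that function, and 37 of the 19974 Ensembl genes in the deposited count table carry those names. All 37 passed the filter on low counts. RNA sequencing was done on 4 groups of 3 cultures: WERI-Rb-1 cells (WERI here) in 50 nM THZ1 for 12 h, WERI cells in 0.1% DMSO for 12 h, Y79 cells in 50 nM THZ1 for 12 h, and Y79 cells in 0.1% DMSO for 12 h. Both are established human retinoblastoma lines, given as genotype WT in the labels, and each stands for 1 tumour, so a difference between them cannot be told apart from other traits of those tumours. THZ1 is a covalent inhibitor of CDK7, a kinase that acts on RNA polymerase II at promoters, and it also binds CDK12 and CDK13. DMSO is the solvent.

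MYC and its relative MYCN bind DNA with their partner MAX, most tightly at the E-box CACGTG, and raise transcription of many growth genes. A large part of that programme serves the nucleolus, where RNA polymerase I transcribes ribosomal RNA, small nucleolar RNPs (snoRNPs) guide its modification and cleavage, and assembly factors fold it with ribosomal proteins into the small and large subunits. Y79 is known for an amplified MYCN gene, and the growth programme of a tumour cell with high MYC or MYCN is the setting in which these genes are usually discussed.

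Library totals ran from 29677575 to 37433574 counts. Levels are in CPM (counts scaled to a common library size with TMM factors), the ± of a level is its SD over 3 cultures and the ± of a log2 value its SE, and a gene is called at an adjusted p under 0.05 in edgeR's quasi-likelihood test over all tested features. The libraries labelled Y79 THZ1 replicate 1 and replicate 3 differed from each other about as much as other replicate pairs did (chi-square per degree of freedom 13.4, with 7.73 to 13.8 over all pairs without replicate 2), whereas replicate 2 of that group stood apart from both (72.9 and 74.4). Summed levels of marker lists are an exception: they are CPM scaled by library size only, without TMM factors. They are therefore not on the scale of the single genes below. With library size only, the median log2 fold change of all genes, THZ1 over DMSO, was -0.56 in WERI and -0.65 in Y79. All 9 photoreceptor-lineage markers were detected. In WERI they summed to 1154 to 1168 CPM in THZ1 and 2833 to 2931 CPM in DMSO. In Y79 the sums were 556 to 577 CPM in THZ1 and 1468 to 1483 CPM in DMSO. Markers of blood and endothelium summed to at most 3.41 CPM in any library, and the fibroblast list summed to 47.1 to 50.1 CPM in THZ1 and 29.3 to 32.9 CPM in DMSO in WERI, with DCN and LUM at 0 in DMSO. Müller glia markers, of which 3 of 5 passed the filter, summed to 163 to 180 CPM in THZ1 and 198 to 205 CPM in DMSO in WERI. In Y79 they summed to 315 to 358 CPM in THZ1 and 546 to 578 CPM in DMSO. RLBP1 was at 0 in WERI THZ1 and in both Y79 groups, and AQP4 was at 0 in Y79 THZ1. Pigment epithelium markers stayed between 4.23 and 35.8 CPM, with TYR at 0. RB1, the gene lost in retinoblastoma, averaged 0.104 CPM in THZ1 and 0.0290 CPM in DMSO in WERI, and 102 CPM in THZ1 and 49.7 CPM in DMSO in Y79. MYCN averaged 253 CPM in THZ1 against 332 CPM in DMSO in WERI, and 711 CPM against 1233 CPM in Y79. MYC was scarce beside it, at 2.04 and 0.952 CPM in WERI and 5.56 and 10.3 CPM in Y79 (THZ1 first). CDK7 itself averaged 3.00 CPM in THZ1 against 11.1 CPM in DMSO in WERI, and 5.42 against 19.3 CPM in Y79. The part of any of these in the results on the 37 genes was not tested.

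The E-box is shown first because it is the letter sequence that a MYC dimer reads. RefSeq promoter windows (250 bases before to 50 bases after each annotated start, GRCh38.p14) were available for 31 of the 37 genes; NOLC1, NOP58, RRP12, RRS1, BOP1 and DDX18 had none. The letters CACGTG, which read the same on both strands, occurred in at least 1 window of 20 of the 31 genes, or 64.5% (exact 95% interval 45.4% to 80.8%). Among 11440 other tested genes with a window the share was 12.1%. Counted by window, 45.45% of the 44 windows of the 31 genes held the letters. The share was 8.92% of the windows of other tested genes and 7.26% of all 35116 windows. The 20 genes carried 24 matches, in 16 genes within 50 bases of a start, and APEX1, ODC1 and IMP4 carried more than 1. When only the bases before the start were searched, 10 of 31 genes (32.3%) held the letters, against 10.9% of the others, and the near form CACGCG or CGCGTG was found in 7 of 31 (22.6%) against 21.7%. These are matches of letters, and binding of any factor to them was not measured. The 37 genes were picked as known MYC targets, so a share above that of other genes may come from the choice itself.

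The sites below lie near the start of genes whose transcripts changed much with THZ1 or between the lines, and of ODC1, a classic MYC target that changed little, with the E-box in capitals and the gene's strand written 5′ to 3′.
BYSL (chr6:41921515-41921544, + strand): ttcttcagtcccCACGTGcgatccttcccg
NOP2 (chr12:6568242-6568268, - strand): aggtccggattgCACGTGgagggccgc
GNL3 (chr3:52686026-52686055, + strand): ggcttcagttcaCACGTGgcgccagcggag
LYAR (chr4:4290068-4290097, - strand): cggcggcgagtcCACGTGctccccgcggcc
MRTO4 (chr1:19251807-19251836, + strand): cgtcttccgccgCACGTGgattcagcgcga
IMP4 (chr2:130342900-130342929, + strand): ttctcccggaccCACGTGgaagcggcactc
RRP9 (chr3:51941892-51941921, - strand): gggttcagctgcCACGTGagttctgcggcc
FBL (chr19:39846356-39846385, - strand): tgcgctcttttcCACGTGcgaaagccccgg
NME1 (chr17:51153581-51153608, + strand): agtgctgcgaacCACGTGggtcccgggc
ODC1 (chr2:10447990-10448019, - strand): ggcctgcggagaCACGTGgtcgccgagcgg
In each of these sites a c stands directly before the box or a g directly after it, which are the same letter read on opposite strands. IMP4 and NME1 have both. How often such flanks occur at other boxes was not tested. The first 7 belong to transcripts that fell in both lines after THZ1, and FBL, NME1 and ODC1 to transcripts that did not fall in either under TMM scaling (under mitochondrial scaling all 3 were lower in both lines). For 2 genes a longer run is given, because APEX1 has 3 boxes close together and UTP20 places its box directly before the start. The APEX1 run stops at the first base that GENCODE 29 annotates as exon and holds 2 of its boxes, and the third follows at once, still before the RefSeq start.
APEX1 (chr14:20455106-20455190, + strand): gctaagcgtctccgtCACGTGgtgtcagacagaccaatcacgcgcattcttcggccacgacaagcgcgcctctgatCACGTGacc
APEX1, last box (chr14:20455191-20455220, + strand): aggtccgctaccCACGTGggggctcagcgt
UTP20 (chr12:101279855-101280104, + strand): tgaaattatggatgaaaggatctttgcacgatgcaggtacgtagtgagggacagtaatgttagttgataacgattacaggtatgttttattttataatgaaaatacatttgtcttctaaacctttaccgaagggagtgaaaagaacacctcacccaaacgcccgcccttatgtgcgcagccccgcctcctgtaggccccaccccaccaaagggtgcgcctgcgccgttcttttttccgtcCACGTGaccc

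**Figure D1:**
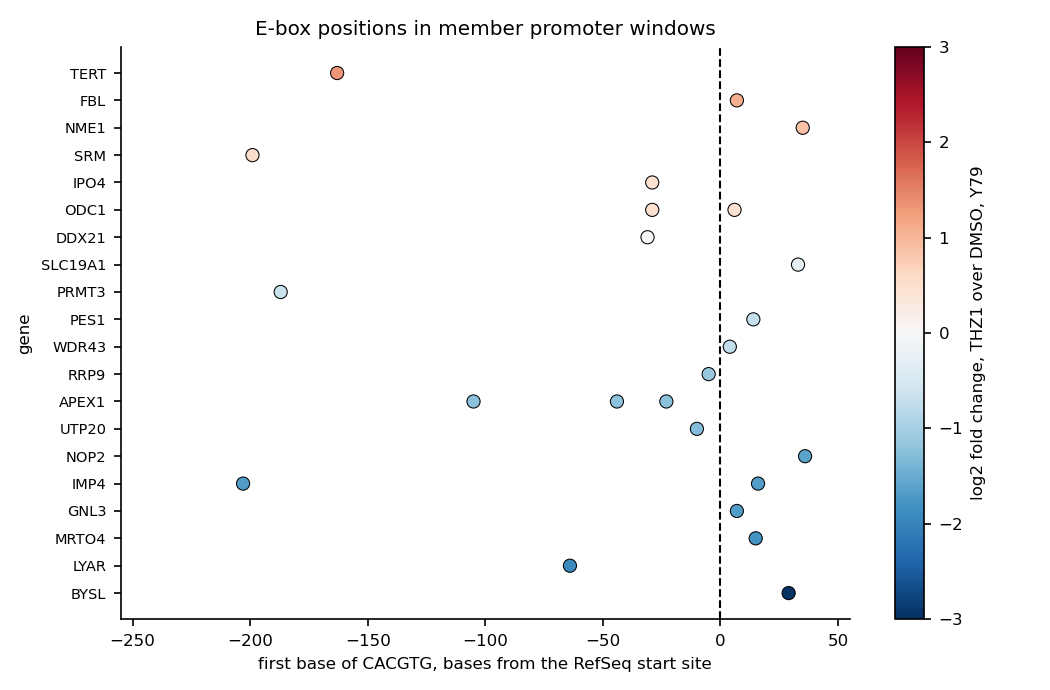
Position of each CACGTG match (x axis, bases from the RefSeq start, dashed line at the start) in the promoter windows of the 20 genes that hold it (rows, ordered by change), coloured by the log2 fold change of the transcript in Y79, THZ1 over DMSO. Most points lie close to the start, and both rising and falling genes carry them.

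In untreated culture the 37 genes were set higher in Y79 than in WERI. Of the 37, 33 were higher in Y79 DMSO than in WERI DMSO and 1, TERT, was lower, while ODC1, PRMT3 and IPO4 were not called. Of all tested genes 32.3% were higher and 32.6% lower (64.9% in either direction). The median log2 difference of the 37 genes was 0.82, beside 0.00 over all tested genes, and 12 of the 37 were at least 2-fold higher, beside 10.6% of all. The libraries of the 2 lines did not overlap for 34 genes above and 1 below, beside 38.9% and 39.0% of all genes. By role, all 6 nucleolar hub genes, all 6 snoRNP and U3 genes and all 10 large subunit genes were higher in Y79, with 4 of 5 small subunit genes and 5 of 6 genes of polyamine, nucleotide and folate supply. Under mitochondrial scaling, 27 of the 37 stayed called higher and TERT lower, beside 2706 higher and 6322 lower of all 14865 tested genes. The genes took 0.917% ± 0.00768 of all counts in Y79 DMSO and 0.574% ± 0.00773 in WERI DMSO. Genes of the same pathways outside the 37, in the lists further below, were also mostly higher in Y79 DMSO. Of 44 small subunit factors 36 were higher and 0 lower (median log2 0.59), and of 46 large subunit factors 38 and 1 (median 0.68). Of 30 snoRNP and nucleolar genes 18 were higher and 4 lower. The counts were 23 and 6 of 38 for polyamine and nucleotide synthesis, and 11 and 0 of 16 for mitochondrial transcription and telomerase. In whole cultures a higher level per cell and a larger share of cells with the transcript cannot be told apart.

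RRP9, the U3 snoRNP protein of the complex that makes the first cuts in ribosomal RNA, showed the largest difference, with 97.2, 88.2 and 97.7 CPM in Y79 DMSO against 25.6, 30.9 and 29.7 CPM in WERI DMSO. Its log2 difference was 1.72 ± 0.16 (adjusted p = 6.74e-07). FBL, the methyltransferase of box C/D snoRNPs, came next, with 423, 398 and 422 CPM in Y79 against 140, 163 and 148 CPM in WERI. Every Y79 library lay above every WERI library for both genes, and the difference of FBL was 1.46 ± 0.16 (adjusted p = 4.02e-06). LYAR, a nucleolar zinc finger protein, had 41.3, 41.9 and 38.5 CPM in Y79 against 16.5, 15.4 and 16.9 CPM in WERI, a log2 difference of 1.31 ± 0.14 (adjusted p = 1.46e-06). UTP20, a large scaffold of the small subunit precursor, had 108, 113 and 110 CPM in Y79 against 48.8, 42.2 and 44.1 CPM in WERI, a difference of 1.30 ± 0.15 (adjusted p = 4.80e-06). The library values of these 2 genes also kept the lines apart. TERT, the catalytic subunit of telomerase, ran the other way at a level near the bottom of the table, with 0.689, 0.326 and 0.746 CPM in Y79 against 1.88, 2.00 and 1.35 CPM in WERI, and its log2 difference was -1.56 ± 0.33 (adjusted p = 0.000969). ODC1, the first enzyme of polyamine synthesis, had nearly the same level in both lines, at 465, 491 and 471 CPM in Y79 and 454, 470 and 438 CPM in WERI (log2 0.07 ± 0.12, adjusted p = 0.648). Calls of SLC19A1 and PPAN in this comparison rested on single libraries: SLC19A1 (log2 0.29) had an adjusted p of 0.0675 without WERI DMSO replicate 3 and 0.0596 without Y79 DMSO replicate 3, and PPAN (log2 0.60) had 0.0539 without WERI DMSO replicate 1 and 0.0553 without Y79 DMSO replicate 3.

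Per kilobase of merged exon, the most abundant of the 37 genes in Y79 DMSO were NPM1 (349 ± 14.98), FBL (191 ± 6.49), NCL (166 ± 0.439), ODC1 (160 ± 4.68) and NME2 (151 ± 3.21), in CPM per kilobase. NCL and ODC1 lay close, with a gap of about 1 SD of ODC1. In WERI DMSO, ODC1 (153 ± 5.39) and NPM1 (147 ± 5.05) led with a gap of about 1 SD, NCL (108 ± 3.64) and NME2 (78.9 ± 3.75) followed, and APEX1 (69.3 ± 1.78) and FBL (69.1 ± 5.35) did not differ beyond their spread. TERT was last in both lines, at 0.128 ± 0.0495 in Y79 and 0.378 ± 0.0748 in WERI. Next above it were PRMT3, IPO4 and SLC19A1 in Y79, and RRP12, IPO4 and UTP20 in WERI. After THZ1 the first place passed to NME2 in both lines, at 608 ± 191 in Y79 and 253 ± 21.4 in WERI. NPM1 followed at 444 ± 97.2 in Y79 and 218 ± 9.49 in WERI. The wide SDs in Y79 include replicate 2, which was the highest THZ1 library for both genes. NME2 also shares exon bases with a readthrough gene, as given below. NOP16 moved down to the last place but TERT, at 0.863 ± 0.175 in Y79 and 1.03 ± 0.370 in WERI.

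The next comparisons ask what THZ1 did to these transcripts in each line. Of the 5 small subunit factors 4 fell in WERI and 5 in Y79, and of the 10 large subunit factors 8 fell in each line, BYSL and NOP16 by most, while BOP1 and WDR74 fell in neither line. NME1, NME2, NOLC1, NPM1, FBL, NOP56 and SRM were higher in both lines under TMM scaling, and under mitochondrial scaling none of them was called higher in either. In WERI 21 of the 37 genes were lower, 8 were higher and 8 were not called, where 37.2% of all tested genes were lower and 27.7% higher (64.8% in either direction). In Y79 23 were lower, 10 higher and 4 not called, where 38.5% of all genes were lower and 29.9% higher (68.3% in either direction). The median log2 fold change was -0.45 in WERI (all genes -0.11) and -0.62 in Y79 (all genes -0.09). Falls of at least 2-fold were found for 9 genes in WERI and 14 in Y79, beside 16.7% and 19.9% of all genes, and rises of at least 2-fold for 1 and 3 genes, beside 11.3% and 14.4%. The 3 THZ1 libraries lay wholly below the DMSO libraries for 23 genes and wholly above for 11 in WERI (42.8% and 33.1% of all genes), and for 23 and 10 in Y79 (39.5% and 29.4%). With replicate 2 of Y79 THZ1 left out, the counts were 24 lower and 9 higher in WERI and 23 lower and 9 higher in Y79. Of all 15111 tested genes, 6122 were then lower and 4350 higher in WERI, and 6001 and 4388 in Y79. With all 12 libraries and TMM scaling, 21 genes were lower in both lines and 7 higher in both. None was called in opposite directions, and DDX21, WDR74 and IPO4 were called in neither line.

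**Figure D2:**
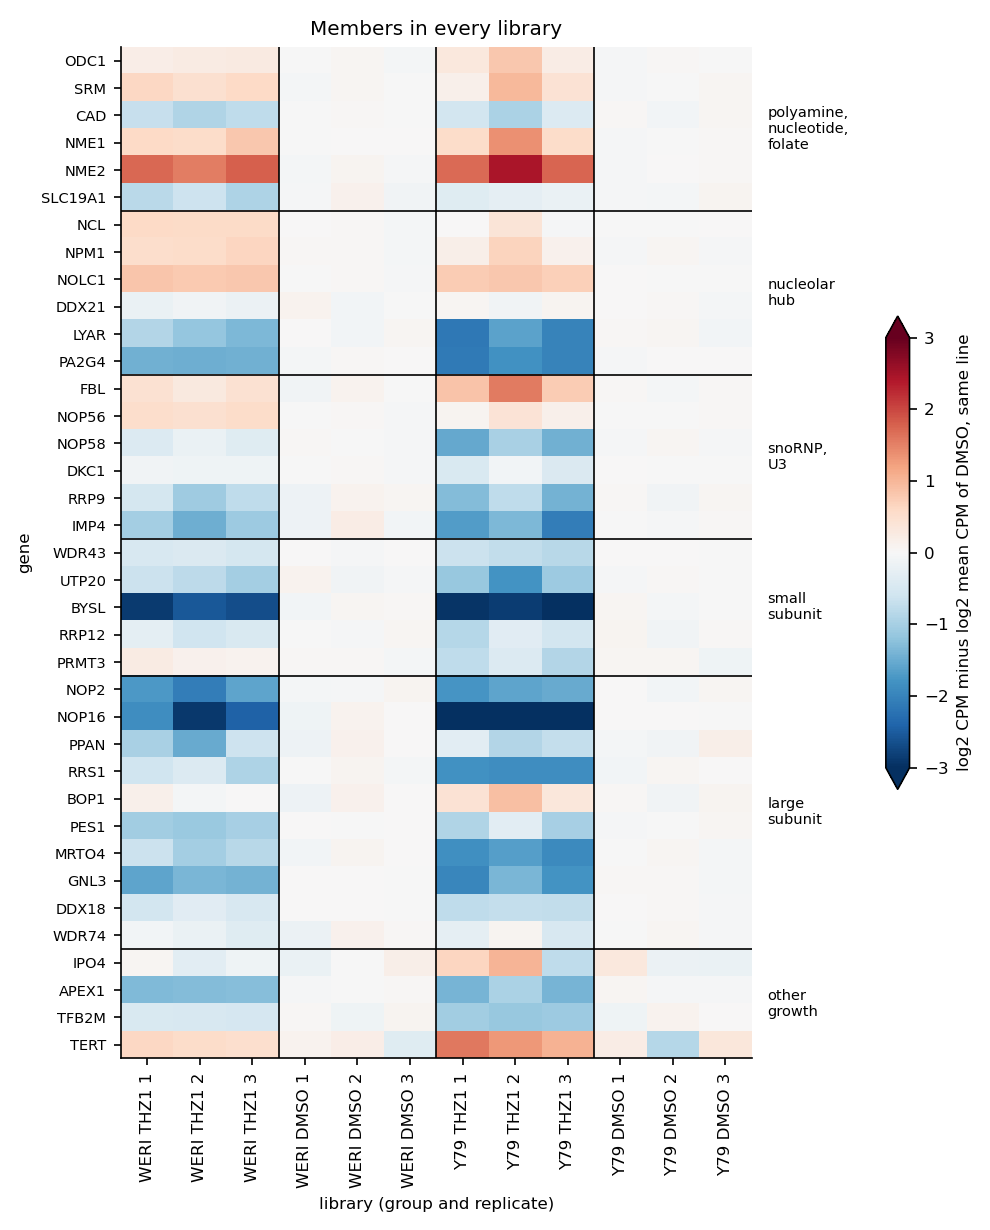
Level of each of the 37 genes (rows, grouped by role) in each of the 12 libraries (columns) as log2 CPM minus the log2 mean CPM of the DMSO cultures of the same line; colours stop at -3 and 3. BYSL and NOP16 are the darkest falls, NME2 is the strongest rise under this scaling, and Y79 THZ1 replicate 2 is redder than its fellow replicates for ODC1, NME1, FBL and NPM1.

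How a rise or fall reads depends on what is held fixed. TMM scaling sets most genes near no change. The 13 mRNAs made inside mitochondria by their own polymerase took 8.44% to 11.2% of a THZ1 library and 3.74% to 4.46% of a DMSO library. Scaled to them, the median log2 fold change of all genes was -2.01 in WERI and -1.80 in Y79. None of the 37 genes was higher, and 36 were lower in WERI and 35 in Y79. Of all 14865 tested genes, 111 were then higher and 13328 lower in WERI, and 283 higher and 12188 lower in Y79. With library size only, the median of all genes was -0.56 in WERI and -0.65 in Y79. The 37 genes then counted 2 higher and 27 lower in WERI, and 3 higher and 28 lower in Y79. All 14865 tested genes counted 2221 higher and 7961 lower in WERI, and 2175 higher and 8334 lower in Y79. Of the genes that fell, 20 of 21 in WERI and 21 of 23 in Y79 were called lower under all 4 scalings. The exceptions were NOP58 in WERI and SLC19A1 and DKC1 in Y79. Library size and mitochondrial scaling moved the median of all genes down, so they could hardly undo a fall called under TMM. No gene was called higher under all 4, so each rise below is a rise against the typical gene, and its value under the scaling that turns it is given. The share of counts held by the 37 genes was 0.505% ± 0.00391 in THZ1 and 0.574% ± 0.00773 in DMSO in WERI. In Y79 it was 0.691%, 0.835% and 0.689% in the THZ1 libraries, the middle value in replicate 2, and 0.917% ± 0.00768 in DMSO.

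**Figure D3:**
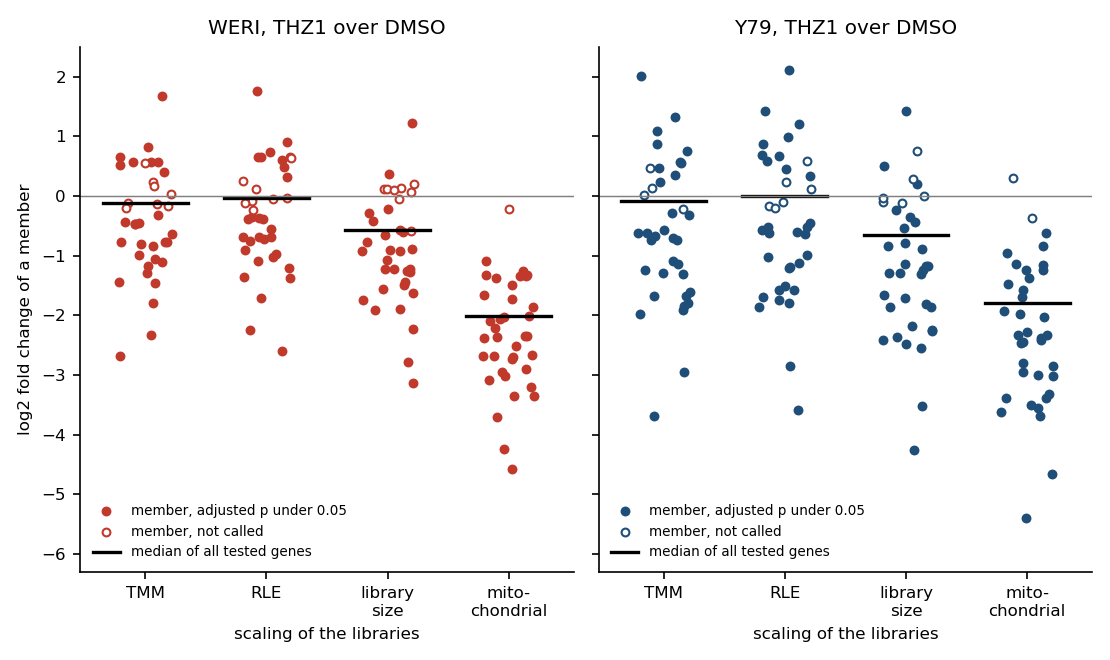
Log2 fold change, THZ1 over DMSO, of each of the 37 genes (points; filled, adjusted p under 0.05) under 4 scalings of the libraries, in WERI and Y79, with the median of all tested genes as a black line. The cloud moves down with the median from TMM to mitochondrial scaling, so that every positive value under TMM but that of NME2 in Y79 turns negative.

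Among the 10 large subunit factors, 8 were lower in WERI (median log2 -0.91) and 8 in Y79 (median -1.18), and the exceptions were BOP1 and WDR74 in both lines. NOP16, a nucleolar protein of the early pre-60S particle, had 4.09, 2.00 and 2.76 CPM in WERI THZ1 against 13.5, 15.9 and 15.03 CPM in WERI DMSO. In Y79 it had 2.99, 2.42 and 2.00 CPM in THZ1 against 32.3, 32.3 and 31.6 CPM in DMSO. The log2 fold changes were -2.33 ± 0.20 in WERI (adjusted p = 2.47e-07) and -3.69 ± 0.21 in Y79 (adjusted p = 3.50e-09). THZ1 brought NOP16 to about the same low level in both lines although Y79 had started higher, and no treated library came near a control. The gene lies at chr5:176383938-176388975 on the - strand. NOP16 shares 344 exon bases with ARL10 and 227 with HIGD2A on the other strand, and the kit does not keep strand. NOP2, a cytosine methyltransferase of 28S ribosomal RNA, had 14.03, 10.98 and 15.4 CPM in WERI THZ1 against 44.3, 45.5 and 49.5 CPM in DMSO, and 24.0, 27.3 and 28.97 CPM in Y79 THZ1 against 82.6, 77.9 and 85.3 CPM in DMSO. It fell by 1.79 ± 0.11 on the log2 scale in WERI (adjusted p = 1.45e-08) and by 1.62 ± 0.11 in Y79 (adjusted p = 1.92e-08). The groups of NOP2 stayed apart in both lines; it shares 2550 exon bases with the gene AC006064.6 on the same strand, so reads may be split between them.

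GNL3, or nucleostemin, a GTPase of the nucleolus that is high in dividing progenitors and tumours, had 34.6, 39.9 and 38.9 CPM in WERI THZ1 against 105, 105 and 102 CPM in WERI DMSO. In Y79 it had 39.99, 60.5 and 44.98 CPM in THZ1 against 158, 158 and 150 CPM in DMSO. Its log2 fold changes were -1.46 ± 0.12 (adjusted p = 1.20e-07) in WERI and -1.68 ± 0.12 (adjusted p = 2.25e-08) in Y79. Every treated culture held well under its controls. RRS1, which brings the 5S RNP to the particle, had 13.1, 14.9 and 10.4 CPM in WERI THZ1 against 19.6, 21.0 and 19.0 CPM in DMSO, and 13.02, 12.5 and 12.6 CPM in Y79 THZ1 against 43.1, 47.8 and 46.1 CPM in DMSO. Its log2 fold change was -0.63 ± 0.11 in WERI (adjusted p = 0.000252) and -1.85 ± 0.12 in Y79 (adjusted p = 7.61e-09). Both lines again ended at one treated level from different control levels. MRTO4, a relative of the ribosomal stalk protein P0 that holds its place during assembly, had 19.9, 15.3 and 17.5 CPM in WERI THZ1 against 29.4, 32.9 and 31.5 CPM in DMSO. It had 18.5, 21.2 and 17.8 CPM in Y79 THZ1 against 66.2, 69.3 and 64.4 CPM in DMSO, for log2 fold changes of -0.83 ± 0.10 in WERI (adjusted p = 6.72e-06) and -1.80 ± 0.10 in Y79 (adjusted p = 3.11e-09). MRTO4 showed the same picture as RRS1, with no overlap between groups.

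BOP1 and PES1 encode partners in a single complex of the large subunit pathway, and their transcripts did not move together. PES1 was lower in both lines, by 1.05 ± 0.14 in WERI (adjusted p = 1.28e-05) and 0.71 ± 0.13 in Y79 (adjusted p = 0.000312). BOP1 had 78.2, 67.5 and 70.3 CPM in WERI THZ1 against 63.4, 76.5 and 70.9 CPM in DMSO (log2 0.03 ± 0.13, adjusted p = 0.834), and 137, 190 and 129 CPM in Y79 THZ1 against 104, 94.2 and 107 CPM in DMSO. The Y79 change of BOP1 was 0.58 ± 0.13 (adjusted p = 0.00119); its value was 0.35 without Y79 THZ1 replicate 2, -1.13 under mitochondrial scaling and -0.00435 with library size only. The third partner, WDR12, is no member of the 37 and averaged 18.7 CPM in THZ1 against 31.3 CPM in DMSO in WERI and 39.6 against 79.6 CPM in Y79. DDX18, an RNA helicase, fell by 0.45 ± 0.07 in WERI and 0.75 ± 0.07 in Y79, and PPAN, a nucleolar factor of large subunit processing, fell by 0.99 ± 0.19 and 0.62 ± 0.19. The Y79 call of PPAN was lost without Y79 THZ1 replicate 2 (log2 -0.53, adjusted p = 0.0696), and the gene shares 1447 exon bases with the readthrough PPAN-P2RY11. WDR74, a factor released with the AAA ATPase NVL, was not called in WERI (-0.21 ± 0.13, adjusted p = 0.190) or Y79 (-0.21 ± 0.13, adjusted p = 0.173), and was called lower in WERI (-0.24) and Y79 (-0.40) without Y79 THZ1 replicate 2. It was also called lower with library size only, at -0.66 in WERI and -0.79 in Y79.

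The small subunit factors fell as a group in Y79, where all 5 were lower (median log2 -0.73), and 4 of 5 were lower in WERI (median -0.47). BYSL, or bystin, which is needed to finish the small subunit, had 6.40, 8.06 and 7.38 CPM in WERI THZ1 against 43.8, 48.6 and 47.8 CPM in WERI DMSO. In Y79 it had 10.5, 11.04 and 9.39 CPM in THZ1 against 83.2, 76.9 and 79.4 CPM in DMSO. The log2 fold changes were -2.68 ± 0.10 in WERI (adjusted p = 1.95e-10) and -2.96 ± 0.10 in Y79 (adjusted p = 4.17e-11). The gene lies at chr6:41921188-41933046 on the + strand (GRCh38, GENCODE 29). BYSL was the largest fall of the 37 genes in WERI and the second largest in Y79, and the treated libraries were tight in both. UTP20 fell by 0.81 ± 0.15 in WERI (adjusted p = 0.000367) and 1.31 ± 0.15 in Y79 (adjusted p = 3.46e-06). WDR43, a protein of the UTP-A complex that joins transcription to processing of ribosomal RNA, fell by 0.47 ± 0.06 and 0.73 ± 0.06, and RRP12, which helps export the small subunit, fell by 0.44 ± 0.12 and 0.57 ± 0.12. PRMT3, an arginine methyltransferase whose main substrate is the ribosomal protein RPS2, had 30.1, 27.9 and 27.3 CPM in WERI THZ1 against 25.9, 25.8 and 24.3 CPM in DMSO, and 14.8, 18.8 and 13.6 CPM in Y79 THZ1 against 26.1, 26.0 and 23.0 CPM in DMSO. It was lower in Y79 only by call, at -0.67 ± 0.11 (adjusted p = 0.000128), with 0.16 ± 0.11 in WERI (adjusted p = 0.219), and the WERI value was -0.28 by library size alone and -1.73 under mitochondrial scaling. The treated and control libraries of PRMT3 did not overlap in either line but lay on opposite sides under TMM.

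**Figure D4:**
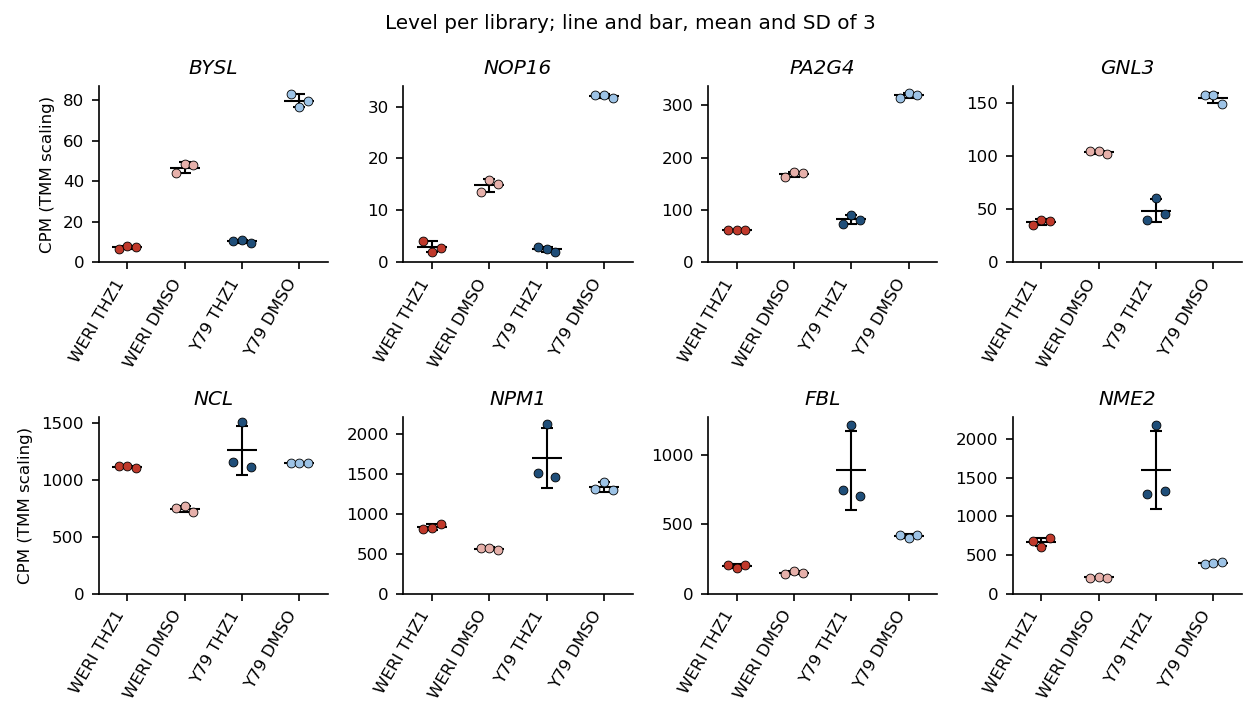
CPM of 8 of the genes in every library (points) with mean and SD of 3 (bars), ordered WERI THZ1, WERI DMSO, Y79 THZ1, Y79 DMSO; the y axes start at 0 and differ between panels. BYSL, NOP16, PA2G4 and GNL3 lie lower after THZ1 in both lines. NCL, NPM1, FBL and NME2 lie higher in WERI under TMM scaling. Under mitochondrial scaling NCL, NPM1 and FBL were called lower in WERI, and NME2 was not called (-0.22). The highest Y79 THZ1 point of these 4 is replicate 2.

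The snoRNP and U3 proteins split. FBL had 207, 184 and 204 CPM in WERI THZ1 against 140, 163 and 148 CPM in WERI DMSO, and 745, 1213 and 699 CPM in Y79 THZ1 against 423, 398 and 422 CPM in Y79 DMSO. Its change was 1.10 ± 0.16 in Y79 (adjusted p = 4.31e-05), with 0.77 without Y79 THZ1 replicate 2 and -0.61 under mitochondrial scaling. In WERI it was 0.40 ± 0.16 (adjusted p = 0.0444); 10 of the 12 fits that left out a library missed the threshold (adjusted p 0.0533 to 0.137), and the value was -0.05 by library size alone and -1.50 under mitochondrial scaling. NOP56 and NOP58, which form a pair in every box C/D snoRNP with FBL, parted. NOP56 was higher in WERI by 0.52 ± 0.08 (adjusted p = 5.40e-05; -1.38 under mitochondrial scaling) and in Y79 by 0.23 ± 0.08 (adjusted p = 0.0201). That Y79 call was lost without Y79 DMSO replicate 1 (adjusted p = 0.0662), Y79 DMSO replicate 2 (0.0630) or Y79 THZ1 replicate 2 (0.0753, with the change at 0.097), and the value was -0.34 by library size alone and -1.48 under mitochondrial scaling.

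NOP58 had 70.8, 81.7 and 73.4 CPM in WERI THZ1 against 96.8, 93.1 and 92.0 CPM in WERI DMSO, and 64.3, 94.3 and 68.6 CPM in Y79 THZ1 against 182, 192 and 182 CPM in Y79 DMSO. It fell by 1.29 ± 0.12 in Y79 (adjusted p = 2.43e-07). The WERI fall of 0.32 ± 0.11 (adjusted p = 0.0262) was lost in 4 of the 12 fits that left out a library, namely WERI DMSO replicate 1 or 2 and WERI THZ1 replicate 1 or 3 (adjusted p 0.0514 to 0.0957). No treated library of NOP58 reached a control in either line. DKC1, the pseudouridine synthase of box H/ACA snoRNPs and of telomerase, was lower in Y79 by 0.31 ± 0.09 (adjusted p = 0.00612; -0.48 without Y79 THZ1 replicate 2) and was not called in WERI (-0.12 ± 0.09, adjusted p = 0.269). RRP9 fell by 0.77 ± 0.16 in WERI (adjusted p = 0.00108) and 1.14 ± 0.16 in Y79 (adjusted p = 2.65e-05). IMP4, its partner on the U3 snoRNP, had 13.7, 10.2 and 13.2 CPM in WERI THZ1 against 25.1, 32.6 and 26.4 CPM in DMSO, a log2 fold change of -1.18 ± 0.16 (adjusted p = 2.52e-05), and changed by -1.68 ± 0.17 in Y79 (adjusted p = 7.16e-07).

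The nucleolar hub proteins divided into a rising and a falling set. NCL, or nucleolin, had 1120, 1118 and 1106 CPM in WERI THZ1 against 753, 767 and 718 CPM in WERI DMSO. In Y79 it had 1160, 1508 and 1114 CPM in THZ1 against 1146, 1146 and 1151 CPM in DMSO. The change was 0.58 ± 0.10 in WERI (adjusted p = 0.000153; -1.32 under mitochondrial scaling) and 0.14 ± 0.10 in Y79 (adjusted p = 0.249; -0.44 with library size only). In Y79 the groups of NCL overlapped, and the single high value was replicate 2, without which the change was -0.043. NPM1, or nucleophosmin, had 810, 820 and 877 CPM in WERI THZ1 against 577, 573 and 542 CPM in WERI DMSO, and 1509, 2129 and 1463 CPM in Y79 THZ1 against 1313, 1401 and 1293 CPM in Y79 DMSO. It was higher in WERI by 0.57 ± 0.12 (adjusted p = 0.000857; -1.33 under mitochondrial scaling) and in Y79 by 0.35 ± 0.12 (adjusted p = 0.0194; 0.12 without Y79 THZ1 replicate 2, -0.23 with library size only). The Y79 call of NPM1 was lost without Y79 DMSO replicate 1 (adjusted p = 0.0617) or replicate 3 (0.0699). NOLC1, a chaperone of snoRNPs, had 418, 401 and 411 CPM in WERI THZ1 against 232, 238 and 229 CPM in DMSO, and 694, 707 and 668 CPM in Y79 THZ1 against 412, 402 and 403 CPM in DMSO. Its changes of 0.81 ± 0.06 in WERI (adjusted p = 4.96e-08) and 0.76 ± 0.06 in Y79 (adjusted p = 6.64e-08) were even across libraries, replicate 2 of Y79 THZ1 included, and were -1.08 in WERI and -0.95 in Y79 under mitochondrial scaling.

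PA2G4, a growth regulator that binds ribosomal particles, had 61.5, 60.9 and 62.2 CPM in WERI THZ1 against 163, 172 and 170 CPM in WERI DMSO. Y79 gave 73.5, 90.8 and 80.2 CPM in THZ1 against 314, 323 and 320 CPM in DMSO. It fell by 1.45 ± 0.07 in WERI (adjusted p = 2.09e-09) and by 1.97 ± 0.07 in Y79 (adjusted p = 1.07e-10). PA2G4 was among the 10 most abundant of the 37 genes per kilobase in each line before treatment, so the falls were not limited to scarce transcripts. LYAR had 8.89, 7.28 and 6.45 CPM in WERI THZ1 against 16.5, 15.4 and 16.9 CPM in DMSO, and 9.16, 13.3 and 10.1 CPM in Y79 THZ1 against 41.3, 41.9 and 38.5 CPM in DMSO. It fell by 1.11 ± 0.14 in WERI (adjusted p = 1.01e-05) and by 1.91 ± 0.14 in Y79 (adjusted p = 3.71e-08), with no overlap in either line. PA2G4 shares 458 exon bases with AC034102.2 on the same strand and 434 with AC034102.4 on the other. DDX21, a helicase that links RNA polymerase I and II transcription, was not called in WERI (-0.16 ± 0.07, adjusted p = 0.0721) or Y79 (0.02 ± 0.07, adjusted p = 0.879). In WERI it was called lower in 5 of the 12 fits that left out a library (adjusted p 0.00352 to 0.0460). With library size only it was called lower in both lines (-0.61 in WERI and -0.54 in Y79).

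Genes of polyamine, nucleotide and folate supply gave 3 higher and 2 lower of 6 in WERI (median log2 0.40) and 4 higher and 2 lower in Y79 (median 0.52), and these medians turned negative when libraries were scaled by size only or to mitochondrial mRNAs. NME2, a nucleoside diphosphate kinase, had 681, 604 and 715 CPM in WERI THZ1 against 200, 219 and 204 CPM in WERI DMSO. Y79 cultures held 1285, 2180 and 1332 CPM in THZ1 against 388, 400 and 404 CPM in DMSO. The change was 1.68 ± 0.16 in WERI (adjusted p = 7.58e-07; -0.22 under mitochondrial scaling) and 2.01 ± 0.16 in Y79 (adjusted p = 1.10e-07; 1.69 without Y79 THZ1 replicate 2, and 0.30 with an adjusted p of 0.0852 under mitochondrial scaling). NME2 was the strongest rise of the 37 genes, and its libraries were clear of the controls in both lines. NME1, its neighbour and paralog, had 213, 205 and 246 CPM in WERI THZ1 against 139, 141 and 142 CPM in DMSO, and 461, 821 and 459 CPM in Y79 THZ1 against 307, 315 and 325 CPM in DMSO. It was higher by 0.65 ± 0.18 in WERI (adjusted p = 0.00610; -1.25 under mitochondrial scaling) and by 0.88 ± 0.18 in Y79 (adjusted p = 0.000697; 0.51 without Y79 THZ1 replicate 2, -0.83 under mitochondrial scaling). NME1 (chr17:51153536-51162428) and NME2 (chr17:51165435-51171747) follow each other on the + strand. The readthrough gene NME1-NME2 shares 638 exon bases with NME1 and 603 with NME2, and averaged 144 ± 37.5 CPM in THZ1 and 47.0 ± 20.6 CPM in DMSO in WERI, and 316 ± 110 and 76.5 ± 19.8 CPM in Y79. No source used here says how reads were divided among these 3 genes, so the size of each change is uncertain.

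CAD, which carries out the first steps of pyrimidine synthesis and is a classic MYC target with an E-box in the hamster promoter, had 129, 112 and 124 CPM in WERI THZ1 against 206, 212 and 207 CPM in WERI DMSO. For Y79 the values were 235, 178 and 257 CPM in THZ1 against 349, 323 and 355 CPM in DMSO. It fell by 0.78 ± 0.11 in WERI (adjusted p = 2.70e-05) and by 0.62 ± 0.11 in Y79 (adjusted p = 0.000187). No treated library of CAD reached a control, and Y79 THZ1 replicate 2 was the lowest of its group. ODC1, another classic target, had 518, 537 and 545 CPM in WERI THZ1 against 454, 470 and 438 CPM in DMSO, and 596, 832 and 554 CPM in Y79 THZ1 against 465, 491 and 471 CPM in DMSO. It was not called in WERI (0.23 ± 0.12, adjusted p = 0.106), where it was called without Y79 THZ1 replicate 2 (0.20, adjusted p = 0.000849) and was -0.22 with library size only. In Y79 it was higher by 0.47 ± 0.12 (adjusted p = 0.00288), with 0.24 without replicate 2 of the THZ1 group, -0.11 by library size alone and -1.24 under mitochondrial scaling. ODC1 thus stood above its controls in both lines under TMM while CAD stood below. SRM, spermidine synthase, had 74.8, 68.3 and 74.4 CPM in WERI THZ1 against 47.2, 51.2 and 48.7 CPM in DMSO, a change of 0.57 ± 0.15 (adjusted p = 0.00435; -1.34 under mitochondrial scaling). Y79 had 83.0, 145 and 101 CPM in THZ1, replicate 2 highest, against 72.2, 73.7 and 77.6 CPM in DMSO. That change was 0.56 ± 0.15 (adjusted p = 0.00428), which became 0.27 without Y79 THZ1 replicate 2, -0.03 by library size alone and -1.15 under mitochondrial scaling. SLC19A1, the reduced folate carrier, fell by 0.78 ± 0.09 in WERI (adjusted p = 5.65e-06) and by 0.28 ± 0.09 in Y79 (adjusted p = 0.0171; 0.0664 without Y79 DMSO replicate 3), and shares 1401 exon bases with COL18A1 on the other strand.

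The 4 other growth genes gave no common direction. APEX1, the main abasic-site endonuclease of base excision repair, had 52.2, 53.2 and 54.2 CPM in WERI THZ1 against 127, 131 and 134 CPM in WERI DMSO, and 76.5, 105 and 76.4 CPM in Y79 THZ1 against 210, 199 and 198 CPM in Y79 DMSO. It fell by 1.30 ± 0.10 in WERI (adjusted p = 9.48e-08) and 1.24 ± 0.10 in Y79 (adjusted p = 1.06e-07). APEX1 thus fell to about the same extent in both lines, with no overlap. TFB2M, a factor that opens mitochondrial promoters, fell by 0.48 ± 0.10 in WERI (adjusted p = 0.000713) and by 1.09 ± 0.10 in Y79 (adjusted p = 2.33e-07). TERT had 2.66, 2.54 and 2.45 CPM in WERI THZ1 against 1.88, 2.00 and 1.35 CPM in DMSO, and 1.77, 1.45 and 1.21 CPM in Y79 THZ1 against 0.689, 0.326 and 0.746 CPM in DMSO. It was higher in Y79 by 1.32 ± 0.34 (adjusted p = 0.00333; -0.36 under mitochondrial scaling) and not called in WERI (0.55 ± 0.31, adjusted p = 0.143; -1.34 under mitochondrial scaling). The treated libraries lay above the controls in both lines under TMM, at levels so low that counting error is large. IPO4, an importin for histones and ribosomal proteins, had 52.3, 67.4 and 19.5 CPM in Y79 THZ1 against 41.3, 29.6 and 29.2 CPM in DMSO, a spread that left it uncalled (0.47 ± 0.35, adjusted p = 0.263). Without Y79 THZ1 replicate 3 it was called higher (0.83, adjusted p = 0.000780), but its change turned to -1.24 under mitochondrial scaling. IPO4 shares 3470 of its exon bases with AL136295.4 on the same strand.

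**Figure D5:**
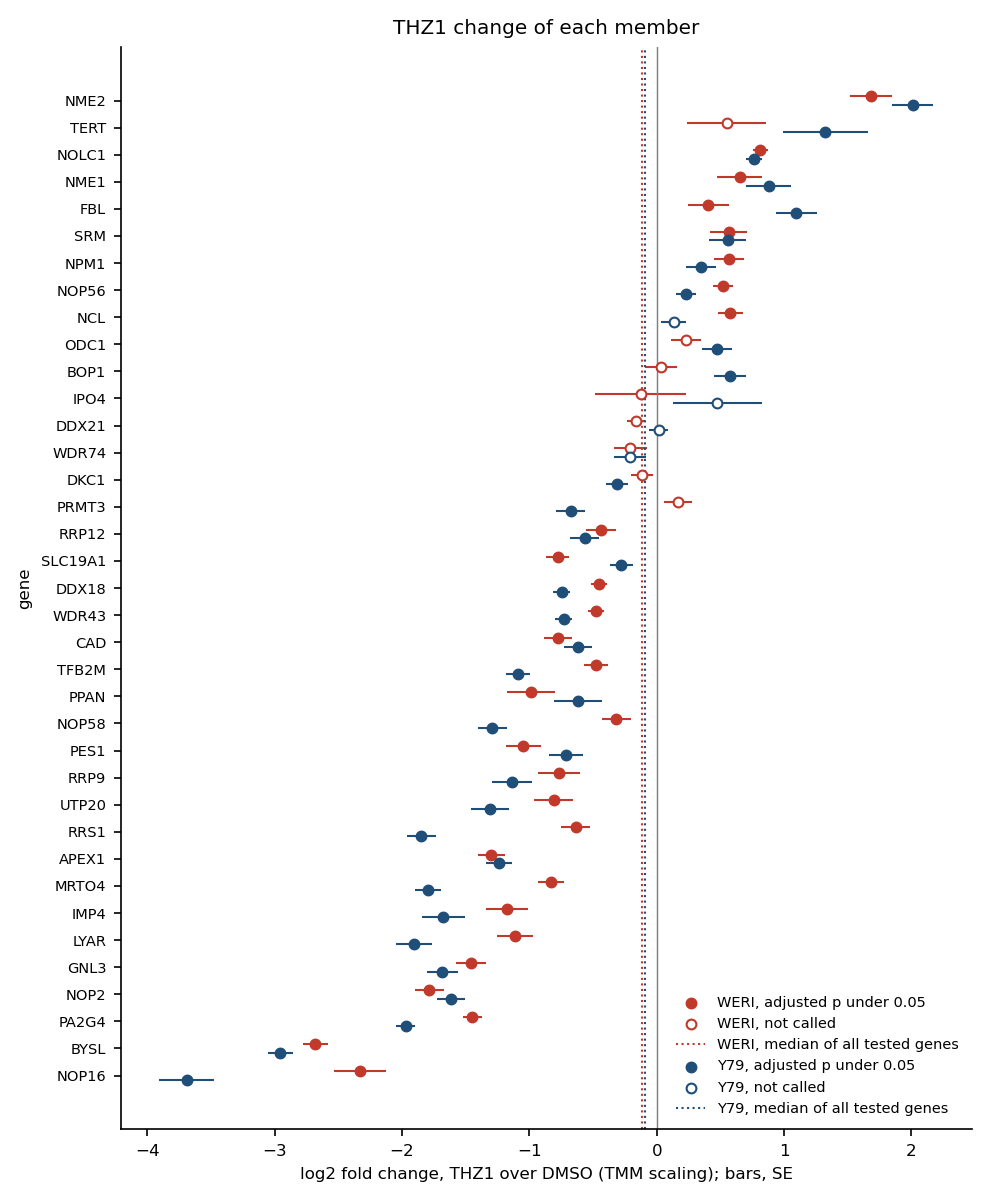
Log2 fold change, THZ1 over DMSO under TMM scaling, of each of the 37 genes (rows, ordered by the mean of both lines) in WERI (red) and Y79 (blue); bars are SE, filled points have an adjusted p under 0.05, and dotted lines mark the median of all tested genes. The 2 lines keep much the same order, from NME2 at the top to BYSL and NOP16 at the bottom, and under mitochondrial scaling the positive values turn negative except NME2 in Y79.

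The difference between the lines in their response was tested directly as the change in Y79 minus the change in WERI. It was called lower, a deeper fall or smaller rise in Y79, for 10 of the 37 genes and higher for 2, beside 13.2% and 8.74% of all genes (22% in either direction), and the median difference was -0.20 (all genes -0.01). With library size only, 14 genes were lower and 1 higher (median -0.32, all genes -0.13), beside 2696 and 740 of 14865 tested genes. Under mitochondrial scaling 5 were lower and 3 higher (median -0.0099, all genes 0.18), beside 713 and 1778. NOP16 differed most, at -1.36 ± 0.29 (adjusted p = 0.00506), followed by RRS1 at -1.21 ± 0.16 (adjusted p = 0.000259), NOP58 at -0.97 ± 0.16 (adjusted p = 0.00108), MRTO4 at -0.97 ± 0.14 (adjusted p = 0.000495) and PRMT3 at -0.84 ± 0.16 (adjusted p = 0.00261). NOP16 and RRS1 passed 2-fold, beside 2.41% of all genes lower and 1.91% higher by that much. These 5 genes were called lower under all 4 scalings and in all other settings tried. This test and the comparison of the lines in DMSO use the same 6 DMSO libraries. For NOP16, RRS1 and MRTO4 the treated levels were nearly alike in the 2 lines and the DMSO levels were not, as given above. LYAR (-0.79), TFB2M (-0.61), PA2G4 (-0.52), NCL (-0.44) and DDX18 (-0.29) were the other lower calls, and each was lost under mitochondrial scaling, at -0.61 for LYAR (adjusted p = 0.0781), -0.43 for TFB2M (adjusted p = 0.141), -0.33 for PA2G4 (adjusted p = 0.143), -0.26 for NCL (adjusted p = 0.325) and -0.11 for DDX18 (adjusted p = 0.695). FBL (0.69) and SLC19A1 (0.50) were the higher calls, and SLC19A1 was lost with library size only (0.38, adjusted p = 0.0876). Those of NCL, FBL and DDX18 were lost in 11, 9 and 10 of the 12 fits that left out a library, with adjusted p up to 0.111, 0.118 and 0.125, and FBL was 0.40 without Y79 THZ1 replicate 2. The call of SLC19A1 was lost without WERI DMSO replicate 2 (adjusted p = 0.0502) or WERI THZ1 replicate 3 (0.0513). Y79 THZ1 replicate 2 weighed most on this comparison. Without it 17 genes were called lower and 5 higher. Calls over all 15111 tested genes rose as well, to 3029 lower and 2161 higher, from 1965 and 1299 with all libraries. Without Y79 THZ1 replicate 3, 4 were called higher (1334 of 15095 tested genes). Without WERI DMSO replicate 2 or WERI THZ1 replicate 3 none was (905 of 15064 and 903 of 15097).

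Across the 37 genes the 2 responses ran in parallel. The log2 fold change in Y79 correlated with that in WERI at r = 0.91 and rho = 0.88 (n = 37 genes), beside r = 0.68 and rho = 0.78 over 14865 tested genes. Genes are not independent replicates, and the 2 sets of values share the scaling and the model. Levels before treatment ran weakly with the change: rho was 0.36 between the WERI change and the Y79 DMSO level per kilobase, and 0.30 between the Y79 change and the WERI DMSO level, beside -0.04 and -0.11 over all genes. The 10 genes highest per kilobase in Y79 DMSO counted 6 higher and 2 lower in WERI (median 0.49), and the other 27 counted 2 higher and 19 lower (median -0.63). In Y79, the 10 highest in WERI DMSO counted 6 higher and 3 lower (median 0.41), and the other 27 counted 4 higher and 20 lower (median -0.73). APEX1 and PA2G4 were the lowered genes among the 10 highest in both lines, joined by DKC1 in Y79.

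Other shared features showed less. Among the 37 genes, 8 host snoRNA genes within them (ODC1, NCL, NOP56, NOP58, DKC1, WDR43, PPAN and GNL3), and their median change was -0.22 in WERI and -0.46 in Y79, against -0.48 and -0.67 for the other 29. The 20 genes with an E-box in a window counted 3 higher and 12 lower in WERI (median -0.77), and the 11 without counted 4 higher and 5 lower (median -0.21). In Y79 the counts were 5 higher and 13 lower (median -0.72) with an E-box, and 3 higher and 6 lower (median -0.31) without. In the DMSO comparison of Y79 with WERI the medians were 0.80 with the box and 0.93 without. NOP16 and PA2G4, among the deepest falls, had no CACGTG in their windows, and neither had NCL, NPM1, NME2, NOP56 or CAD, which says only that these letters are not there. Merged exon length ran with the change at rho = 0.14 in WERI and 0.20 in Y79 (n = 37 genes).

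Genes of the same pathways outside the 37 were read from lists, beside 37.2% lower and 27.7% higher of all tested genes in WERI and 38.5% and 29.9% in Y79. Of 44 further small subunit factors, 36 were lower and 2 higher in WERI (median log2 -0.87), and 38 lower and 2 higher in Y79 (median -1.20). NOB1, the endonuclease that makes the last cut in 18S ribosomal RNA, fell by 2.29 ± 0.11 in WERI, and NOL11, of the UTP-A complex, fell by 2.01 ± 0.10 in WERI and 2.60 ± 0.10 in Y79. WDR3 fell by 3.33 ± 0.09 in Y79. The exceptions were DDX49, higher by 0.64 ± 0.14 in WERI and 0.77 ± 0.14 in Y79, KRR1 in WERI (0.22 ± 0.08) and TBL3 in Y79 (0.20 ± 0.07), and no gene of this list was called higher under mitochondrial scaling or by library size. Of 46 further large subunit factors, 30 were lower and 7 higher in WERI (median -0.73), and 31 lower and 10 higher in Y79 (median -0.83). BRIX1 fell by 2.11 ± 0.15 in WERI and 2.80 ± 0.16 in Y79. GNL2, a GTPase related to GNL3, fell by 1.97 ± 0.08 in WERI, and NIFK fell by 2.67 ± 0.13 in Y79. NOP53, which recruits the nuclear exosome to the particle, was higher by 1.56 ± 0.15 in WERI and 2.19 ± 0.16 in Y79, and the helicase DDX51 by 0.76 ± 0.08 and 1.03 ± 0.08, under TMM; under mitochondrial scaling none of the 46 was called higher in WERI and 1 was in Y79.

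Among 30 other snoRNP and nucleolar genes, 14 were lower and 11 higher in WERI (median -0.22), and 17 lower and 7 higher in Y79 (median -0.34). In WERI these counts are not far from the shares over all tested genes, 37.2% lower and 27.7% higher. GAR1, a core protein of H/ACA snoRNPs with DKC1, fell by 2.01 ± 0.11 in WERI and 3.37 ± 0.11 in Y79, whereas NHP2, a protein of the same particle that was listed with telomerase, was higher by 1.12 ± 0.16 in WERI and 1.24 ± 0.15 in Y79 under TMM (called higher under mitochondrial scaling in neither). POLR1B, a subunit of RNA polymerase I, fell by 2.05 ± 0.13 in WERI, NOL7 fell by 2.45 ± 0.12 in Y79, and NPM2 was higher by 1.57 ± 0.44 in WERI and 1.43 ± 0.55 in Y79 under TMM. Under mitochondrial scaling none of these 30 genes was called higher in WERI and 1 was in Y79. NOP53 and GAR1 each stand in 2 of the lists. The 38 other genes of polyamine and nucleotide synthesis gave 17 higher and 14 lower in WERI (median 0.15) and 18 higher and 15 lower in Y79 (median 0.14), and these medians were -0.30 and -0.42 with library size only and -1.75 and -1.57 under mitochondrial scaling. SAT1, which acetylates polyamines for export and breakdown, was higher by 1.92 ± 0.16 in WERI and 1.65 ± 0.16 in Y79, OAZ1, the inhibitor protein of ODC1, by 1.51 ± 0.14 in WERI, and NME3 by 1.66 ± 0.15 in Y79, all under TMM, and none of the list was called higher under mitochondrial scaling. NME6 fell by 2.15 ± 0.17 in WERI, SLC25A32, a mitochondrial folate carrier, by 2.05 ± 0.13 in WERI and 2.60 ± 0.13 in Y79, and ARG2 by 2.05 ± 0.12 in Y79. Of 16 genes of mitochondrial transcription and telomerase function, 9 were lower and 1 higher in WERI (median -0.53), and 14 lower and 1 higher in Y79 (median -0.61). TERF2, a telomere-binding protein, fell by 1.86 ± 0.12 in WERI, and MTERF3 by 2.34 ± 0.15 in Y79. The medians of the other 4 lists were negative under all 4 scalings in both lines. Library size and mitochondrial scaling shift all genes down, so they could hardly turn a median that was negative under TMM.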

How the data were processed

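RNA sequencing of 12 cultures was read from 1 deposited table of counts per gene. Total RNA was made into libraries with a NEBNext Ultra kit, per the labels' protocols, which does not keep strand, so antisense and overlapping genes cannot be told apart. The submitters' processing notes name Cufflinks and GRCh38; no source used here names the aligner or counter. The deposited counts are whole numbers per gene, not normalized by the authors. The table holds 27505 features, 19974 of them Ensembl genes (matched to GENCODE 29) and 7531 unannotated loci, and 27 symbols that had been turned into dates were restored.

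From these, CPM with TMM factors, and CPM per kilobase of merged exon, were computed in edgeR 4.0.16 (R 4.3.3, limma 3.58.1). Sums of marker lists were scaled by library size only. After filterByExpr (minimum count 10), 14865 Ensembl genes and 3979 loci were fitted together over all 12 libraries (8 residual degrees of freedom) with edgeR's quasi-likelihood test, and p-values were adjusted by Benjamini-Hochberg over all of them. The test was tested on simulated data first. Comparisons were THZ1 against DMSO in each line, the difference of those changes, and Y79 against WERI in DMSO. Alternatives were RLE factors, library size only, scaling to 13 mitochondrial mRNAs, DESeq2 1.42.0, no filter, fits of the compared groups alone, a replicate term, and leaving out each library. Replicates are described as biological samples. The p-values weigh a difference between groups against the spread between these cultures, estimated over all 4 groups together.

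The genes and lists were chosen with earlier results of these data known. Values in every library are given for ODC1, NCL, NPM1, CAD, NME1, NME2, FBL and TERT, and for the 6 called genes furthest down and 6 furthest up in each line. They are also given for the 5 that differed most between lines. The called genes furthest up or down between lines in DMSO, up to 4 each way, have values in the DMSO libraries, and RRP9 and UTP20 in those only. Other genes are given by value or count, with library values of BOP1, of IMP4 in WERI and of IPO4 in Y79. From each list the 2 called genes furthest up and 2 furthest down in each line are named, and WDR12 was added after its values were seen. Promoter letters were searched with Python 3.11.15 in RefSeq windows. Library totals of 29677575 to 37433574 counts give the least precision to scarce genes such as TERT. The interval of the share of genes with an E-box is an exact binomial one over genes. It treats the chosen genes as random draws, which they were not.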

Additional observations from a re-analysis of the deposited data

Results flagged for a closer look

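For 12 of the 37 genes the change with THZ1 differed between the lines by a test of the difference itself (Y79 minus WERI, edgeR's quasi-likelihood test, n = 3 cultures per group). The change was lower in Y79 for NOP16 (-1.36, adjusted p = 0.00506), RRS1 (-1.21, adjusted p = 0.000259), NOP58 (-0.97, adjusted p = 0.00108), MRTO4 (-0.97, adjusted p = 0.000495), PRMT3 (-0.84, adjusted p = 0.00261), LYAR (-0.79, adjusted p = 0.0128), TFB2M (-0.61, adjusted p = 0.00716), PA2G4 (-0.52, adjusted p = 0.00338), NCL (-0.44, adjusted p = 0.0400) and DDX18 (-0.29, adjusted p = 0.0417). It was higher in Y79 for FBL (0.69, adjusted p = 0.0499) and SLC19A1 (0.50, adjusted p = 0.0168). NCL, DDX18, FBL and SLC19A1 lost the call in some fits that left out a library. LYAR, TFB2M, PA2G4, NCL and DDX18 lost it under mitochondrial scaling, and SLC19A1 with library size only, as given with the comparison; NCL, FBL and DDX18 also lost it with RLE factors.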

How the results depend on the processing

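Counts of the 37 genes that moved by over 1.5 times were these. In WERI, 2 were called higher with library size only (2221 of all 14865 tested genes). Mitochondrial scaling gave 0 higher and 36 lower in WERI (111 and 13328 of all). In Y79, 3 were called higher with library size only (2175 of all). Mitochondrial scaling gave 0 higher and 35 lower in Y79 (283 and 12188 of all). For the difference between lines, 1 was called higher with RLE factors, library size only, no filter or the replicate block, and 5 lower under mitochondrial scaling. Of all 14865 tested genes, 1344 were higher with RLE factors, 740 with library size only and 1061 with the replicate block. Without the filter 1139 of 17649 were higher, and under mitochondrial scaling 713 of 14865 were lower. Leaving out single libraries gave 0 to 5 higher and 8 to 17 lower, beside 889 to 2161 and 1437 to 3029 of all tested genes. DESeq2 gave 9 higher and 20 lower in WERI, 11 and 21 in Y79, and 3 and 11 for the difference. Of all 16242 genes it tested, 4671 were higher and 5161 lower in WERI, and 5042 and 5271 in Y79. For the difference the counts were 1735 and 2186 of 15023. The share of genes with an E-box was 32.3% before the start alone and 22.6% for the near form. Calls over all genes split as 42.7% higher in WERI and 43.7% in Y79 with TMM, 21.8% and 20.7% by library size, and 0.826% and 2.27% under mitochondrial scaling; for the difference they split as 39.8%, 21.5% and 71.4%, and for the lines in DMSO as 49.8%, 38.8% and 29.97%.

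With library size only, the log2 fold change turned negative in WERI for ODC1 (-0.22), FBL (-0.045), PRMT3 (-0.28) and BOP1 (-0.41). In Y79 it did so for ODC1 (-0.11), SRM (-0.026), NCL (-0.44), NPM1 (-0.23), DDX21 (-0.54), NOP56 (-0.34), IPO4 (-0.12) and BOP1 (-0.00435). Under mitochondrial scaling it turned negative in WERI for ODC1 (-1.66), SRM (-1.34), NME1 (-1.25), NME2 (-0.22), NCL (-1.32), NPM1 (-1.33), NOLC1 (-1.08), FBL (-1.50), NOP56 (-1.38), PRMT3 (-1.73), BOP1 (-1.87) and TERT (-1.34). In Y79 it did so for ODC1 (-1.24), SRM (-1.15), NME1 (-0.83), NCL (-1.58), NPM1 (-1.37), NOLC1 (-0.95), DDX21 (-1.70), FBL (-0.61), NOP56 (-1.48), BOP1 (-1.13), IPO4 (-1.24) and TERT (-0.36). By construction these scalings shift all genes together; which of them holds RNA per cell fixed was not tested.

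Replicate numbers did not pair the samples: deviations of same-numbered libraries correlated at -0.0447 to 0.0510. With the replicate block, 8 genes were higher and 21 lower in WERI, 10 and 23 in Y79, 1 and 9 for the difference, and 33 and 1 between lines in DMSO. Of all 14865 tested genes, 3984 were then higher and 5410 lower in WERI, and 4257 and 5634 in Y79. The counts were 1061 and 1707 for the difference, and 4691 and 4693 between lines in DMSO.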
